A study of Mus musculus with 12 samples.

Results

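The C-type lectin receptors described here are 10 genes of macrophages, namely Mrc1, Clec7a, Clec10a, Clec4a1, Clec4a2, Clec4a3, Clec4a4, Clec4d, Clec4e and Clec4n. They were listed by name, with earlier results of these data known. Each was read by 1 probe set, so that they make up 10 of the 22180 genes tested. Expression was measured on 12 single-channel arrays of mouse primary macrophages, 3 arrays in each of 4 groups. KO TAMs were cells knocked out for Cd36, a scavenger receptor for fatty acids and oxidised lipoproteins, that had been kept for 72 h with 5TGM1, a mouse multiple myeloma cell line, to turn them into tumour-associated macrophages (TAMs). KO macrophages had the same genotype without the myeloma cells. WT TAMs were wild-type cells after the same co-culture, and WT macrophages were wild-type cells without it. The labels give no strain, age or sex, no time in culture for the macrophages, no way of parting macrophages from myeloma cells, and no word on whether arrays of a group came from separate animals or cultures. The p-values therefore measure the spread between these arrays, which may be technical, and longer culture of the TAMs, if there was any, would enter what is called a co-culture difference here.

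C-type lectin receptors are membrane proteins with a calcium-dependent or related lectin fold, through which myeloid cells bind sugars and lipids of microbes and of damaged or altered host cells. Some take up glycoproteins (Mrc1, Clec10a), some activate the kinase Syk through a motif of their own or through the adaptor FcRγ (Clec7a, Clec4n, Clec4d, Clec4e), and the DCIR receptors of the Clec4a group include members with a cytoplasmic inhibitory motif, the ITIM, which recruits phosphatases. In tissue macrophages Mrc1 and Clec10a are widely used as marks of alternative activation, and Clec4e is known as a gene that inflammatory stimuli induce.

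All levels are log2 intensities after RMA, a method that corrects the background, brings the arrays to a common distribution and joins the probes of each set into 1 value. Differences are log2 values ± the standard error from limma, a linear model fitted to all genes, and a gene was called at an adjusted p (Benjamini-Hochberg over all genes) under 0.05. Cd36 averaged 8.91 in KO TAMs, 8.73 in KO macrophages, 12.32 in WT TAMs and 12.12 in WT macrophages, which put its linear intensity in KO cells at 9.4% of WT in TAMs and 9.5% of WT in macrophages. Xist, which is transcribed from the inactive X chromosome, lay between 3.91 and 4.35 on the KO arrays and between 11.08 and 11.32 on the WT arrays. Kdm5d, Uty and Eif2s3y of the Y chromosome lay between 7.97 and 9.99 on the KO arrays and between 3.05 and 4.10 on the WT arrays, so the Cd36 genotype and this difference between the arrays cannot be told apart. The summed intensity of 8 macrophage markers was 36300 to 38597 in KO TAMs against 29994 to 30283 in KO macrophages, and 34044 to 34336 in WT TAMs against 33782 to 34878 in WT macrophages. Of the 8, 4 rose and 1 fell in KO TAMs, and 2 rose and 2 fell in WT TAMs, beside 6.53% and 11.5% of all genes called. Fcgr1 was called in the interaction (1.16 ± 0.12, adjusted p = 0.00366), as were 0.194% of all genes. The summed intensity of 10 neutrophil markers lay between 160 and 202 in every group. That of 10 myeloma and plasma cell markers, of which none rose with co-culture, was 1499 to 1644 in KO TAMs against 2015 to 2056 in KO macrophages, and 1376 to 1537 in WT TAMs against 1891 to 1900 in WT macrophages. Over all genes 2.9% rose in KO and 5.89% in WT co-culture. Xbp1 was the brightest of the 10 in every group, with means from 9.75 to 10.20, and weighed most in these sums. Jchain, Tnfrsf17, Pou2af1 and Irf4 had group means from only 3.39 to 4.72. TAM arrays varied more than macrophage arrays, with 414 genes over 1 log2 unit from the mean of the other arrays of the group on WT TAM array 2 and 550 on KO TAM array 1, against 4 to 12 on the macrophage arrays. Calls that change without those arrays are given with the gene. All groups share 1 estimate of the spread per gene. Leaving out an array that lies outside a comparison thus changes that spread and the adjusted p, but not the difference.

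Co-culture raised some of the receptors and lowered others. In KO TAMs against KO macrophages 4 of the 10 receptors were called, at a background of 6.53% of all genes. Mrc1, Clec4d, Clec4n and Clec7a rose (background 2.9%), and none fell (background 3.63%). In WT TAMs against WT macrophages 7 were called, at a background of 11.5%. Mrc1, Clec4d and Clec4n rose (3 of 10, background 5.89%), and Clec4a1, Clec4a2, Clec4a3 and Clec4a4 fell (4 of 10, background 5.66%). In KO against WT macrophages 3 of 10 were called, at a background of 11.3%, all of them lower in KO (Clec7a, Clec4d and Clec4e, background 6.13%) and none higher (background 5.19%). In KO TAMs against WT TAMs 4 were called, at a background of 12.2%, namely the 4 Clec4a genes, which were higher in KO (background 5.03%), with none lower (background 7.19%). The interaction of genotype and co-culture, which is the KO co-culture difference minus the WT one, was called for Clec4a3 and Clec4a4, 2 of 10 at a background of 0.194%, both higher (background 0.104%) and none lower (background 0.0902%). The median difference over the 10 receptors was 0.60 in KO co-culture, 0.01 in WT co-culture, -0.07 between macrophages and 0.57 between TAMs, beside -0.01, 0.01, 0.04 and 0.02 over all genes. Without WT TAM array 2 and KO TAM array 1, 6, 8, 5 and 7 receptors were called in those comparisons and 7 in the interaction, the interaction count being 4 without the WT TAM array alone and 5 without the KO TAM array alone. The background rose as well. Of the 22180 genes, 2147, 4049, 4558 and 4480 were called without both arrays, and 1496 in the interaction. The interaction was called for 247 genes without the WT TAM array alone and 444 without the KO TAM array alone. The comparisons share groups of arrays, so their counts are not independent of each other. As the receptors were chosen with earlier results of these data known, the counts describe these genes and are no test of an excess over the background.

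**Figure D1:**
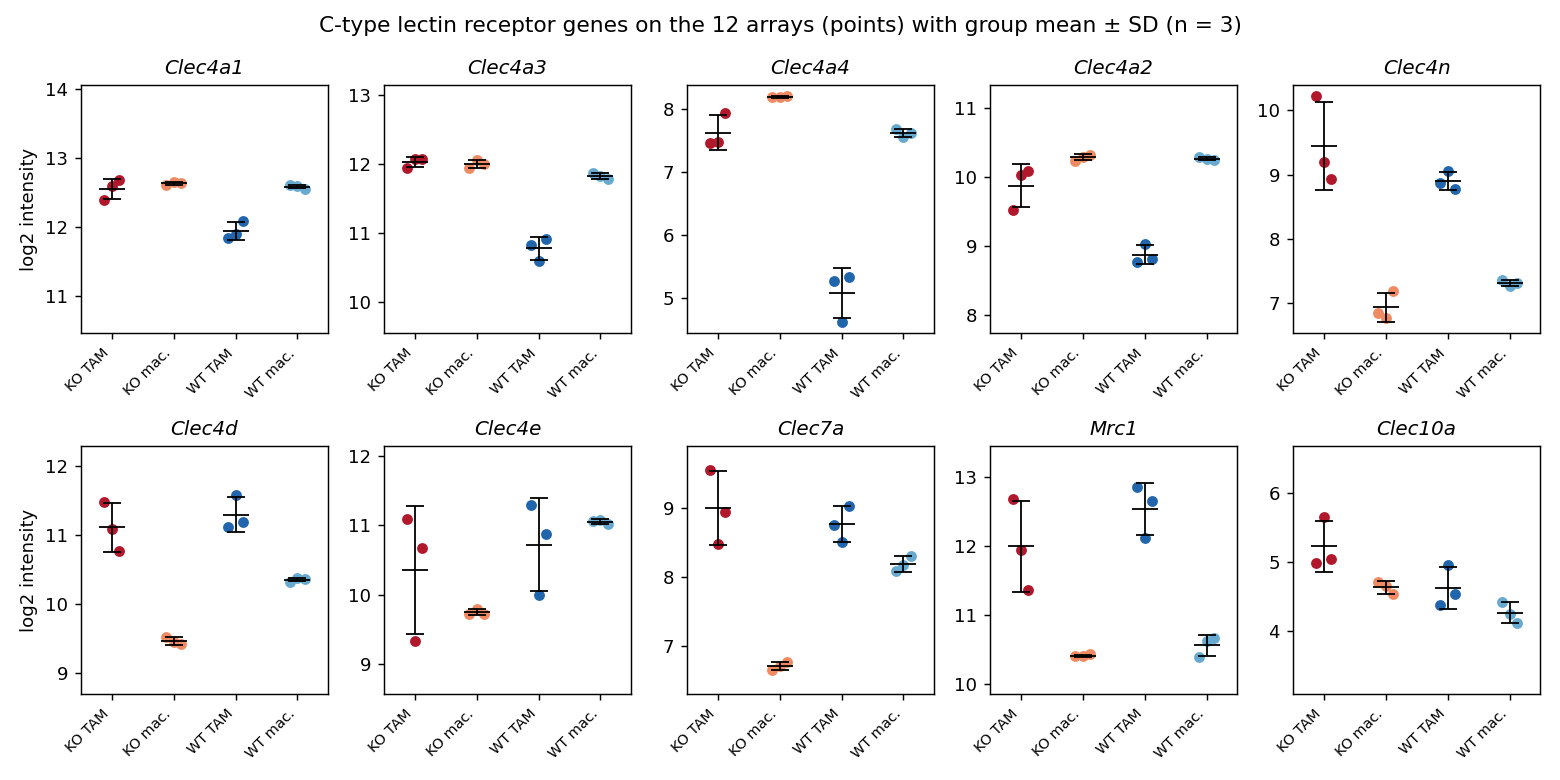
Log2 intensity of each of the 10 receptors on every array, with 1 panel per gene and, from left to right, KO TAMs, KO macrophages, WT TAMs and WT macrophages (3 points each, bar at the group mean). The 4 Clec4a genes stand lowest in WT TAMs, while Mrc1, Clec4d and Clec4n stand higher in both TAM groups than in both macrophage groups.

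The Clec4a genes encode the DCIR receptors of myeloid cells. Clec4a2 and Clec4a4, known as DCIR1 and DCIR2, carry the ITIM, whereas Clec4a1 (DCIR4) and Clec4a3 (DCIR3) do not. None of the 4 was called in KO TAMs, all 4 fell in WT TAMs, and all 4 were higher in KO TAMs than in WT TAMs. These are close paralogs in sequence, and where the probes lie was not checked, so signal shared between them is possible.

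Clec4a4, which binds bisected biantennary N-glycans, was at 7.46, 7.49 and 7.95 in KO TAMs and 8.19, 8.19 and 8.21 in KO macrophages, and at 5.28, 4.62 and 5.33 in WT TAMs and 7.69, 7.56 and 7.63 in WT macrophages. Every WT TAM array lay far below every other array, and KO TAMs lay below KO macrophages without overlap. The KO co-culture difference was -0.56 ± 0.18 (adjusted p = 0.0845), and the WT one was -2.55 ± 0.18, a 5.86-fold fall (adjusted p = 1.14e-05). KO TAMs stood 5.88-fold above WT TAMs (adjusted p = 2.45e-05), and the interaction was 1.99 ± 0.25 (adjusted p = 0.00859). Between macrophages the KO arrays were the higher ones without overlap, by 0.57 ± 0.18, which did not pass the test (adjusted p = 0.059). The adjusted p of this difference was 0.00919 without WT TAM array 2, 0.0499 without KO TAM array 1 and 0.00442 without both, and it passed under 10 of 22 alternatives. Neither of these arrays is in the comparison of macrophages, so the difference itself stayed the same without them. The KO co-culture difference passed without WT TAM array 2 (adjusted p = 0.0158) and without both arrays (-0.48, adjusted p = 0.0344).

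Clec4a3 was at 11.94, 12.06 and 12.06 in KO TAMs and 11.94 to 12.05 in KO macrophages, and at 10.82, 10.59 and 10.91 in WT TAMs and 11.86, 11.82 and 11.77 in WT macrophages. The KO groups covered the same range, and only the WT TAM arrays stood apart below the others. The KO co-culture difference was 0.02 ± 0.09 (adjusted p = 0.931), with a 95% confidence interval from -0.18 to 0.22. The WT one was -1.05 ± 0.09 (2.07-fold, adjusted p = 5.01e-05). The interaction was 1.07 ± 0.13 (adjusted p = 0.00777), and KO TAMs were 2.37-fold above WT TAMs (adjusted p = 3.51e-05).

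Clec4a2, the mouse receptor most like human CLEC4A, was at 9.52, 10.03 and 10.09 in KO TAMs and 10.24, 10.30 and 10.33 in KO macrophages, and at 8.78, 9.04 and 8.82 in WT TAMs and 10.29, 10.27 and 10.25 in WT macrophages. Macrophages of both genotypes overlapped, and TAMs of each genotype lay below their macrophages. The KO co-culture difference was -0.41 ± 0.13 (adjusted p = 0.0957), and the WT one was -1.39 ± 0.13 (2.62-fold, adjusted p = 0.000101). KO TAMs were 2-fold above WT TAMs (adjusted p = 0.000695). The interaction of 0.98 ± 0.19 did not pass the test (adjusted p = 0.0788), and did without KO TAM array 1 (1.16, adjusted p = 0.00131), without WT TAM array 2 (1.06, adjusted p = 0.0301) and without both (1.24, adjusted p = 0.000118).

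Clec4a1 was at 12.39, 12.59 and 12.67 in KO TAMs and 12.60, 12.65 and 12.63 in KO macrophages, and at 11.84, 11.89 and 12.08 in WT TAMs and 12.60, 12.59 and 12.55 in WT macrophages. Again only the WT TAM arrays lay clear of the rest. In KO co-culture the difference was -0.08 ± 0.09 (adjusted p = 0.703, interval from -0.28 to 0.12). In WT co-culture it was -0.64 ± 0.09 (1.56-fold, adjusted p = 0.00106), the smallest fall of the 4 genes. KO TAMs were 1.52-fold above WT TAMs (adjusted p = 0.00151), while the interaction of 0.56 ± 0.13 did not pass the test (adjusted p = 0.135). Without KO TAM array 1 it was 0.64 (adjusted p = 0.0218), and without WT TAM array 2 as well it was 0.62 (adjusted p = 0.0149).

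In bulk RNA, fewer cells of a type and less RNA per cell cannot be told apart, and some monocyte markers also fell in TAMs. The summed intensity of 7 monocyte markers was 380 to 1163 in KO TAMs against 1839 to 2040 in KO macrophages, and 367 to 496 in WT TAMs against 2425 to 2628 in WT macrophages. Of the 7, 1 rose and 2 fell in KO TAMs and 1 rose and 3 fell in WT TAMs, beside 6.53% and 11.5% of all genes called. Cd300e, an activating receptor of monocytes, was the brightest of the 7 in macrophages of both genotypes and so weighed most in these sums. It averaged 8.10 in KO TAMs against 10.51 in KO macrophages and 6.53 in WT TAMs against 10.77 in WT macrophages. Its difference was -2.41 ± 0.82 in KO co-culture (adjusted p = 0.11) and -4.24 ± 0.82 in WT co-culture (18.9-fold, adjusted p = 0.00576). The KO difference was -1.10 without KO TAM array 1 (adjusted p = 0.109) and -3.19 without KO TAM array 3 (adjusted p = 0.0355). It also passed without WT TAM array 2 and KO TAM array 1, and with array weights (adjusted p down to 0.00146). Spn, the surface sialoglycoprotein CD43, was lower by -0.82 ± 0.16 in KO co-culture (adjusted p = 0.0103) and -2.44 ± 0.16 in WT co-culture (adjusted p = 1.12e-05). Its mean was 6.20 in KO TAMs against 7.02 in KO macrophages, and 6.50 in WT TAMs against 8.94 in WT macrophages. Nr4a1, a nuclear receptor of nonclassical monocytes, differed by -0.67 ± 0.12 in KO co-culture (adjusted p = 0.00898) and -0.23 ± 0.12 in WT co-culture (adjusted p = 0.303). Ly6c2, a mark of classical monocytes, rose by 0.98 ± 0.21 in KO TAMs (adjusted p = 0.016, and 0.0748 without KO macrophage array 2) and 1.10 ± 0.21 in WT TAMs (adjusted p = 0.00478). Ccr2 and Ace were not called in the co-culture comparison of either genotype. The summed intensity of 7 dendritic cell markers, a cell type known for Clec4a4, was 413 to 545 in KO TAMs against 567 to 584 in KO macrophages and 459 to 525 in WT TAMs against 571 to 614 in WT macrophages, with 2 of 7 called lower in each genotype. Over all genes 3.63% were called lower in KO and 5.66% in WT co-culture. The part of monocytes and dendritic cells in the result was not tested.

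Promoter sequences are printed for Clec4a1, Clec4a3 and Clec4a2, which moved alike, and for Clec4d and Mrc1, which moved the other way in WT TAMs. RefSeq windows from 250 bases before to 50 after the gene's start (build GRCm38.p6) were at hand for 7 of the 10 receptors, and Clec4a4, Clec4n and Clec10a had no entry. Capitals mark GAGGAA on either strand, the core that the myeloid factor PU.1 binds, and TGANTCA, the AP-1 motif.
Clec4a1 (chr6:122921598-122921897, plus strand): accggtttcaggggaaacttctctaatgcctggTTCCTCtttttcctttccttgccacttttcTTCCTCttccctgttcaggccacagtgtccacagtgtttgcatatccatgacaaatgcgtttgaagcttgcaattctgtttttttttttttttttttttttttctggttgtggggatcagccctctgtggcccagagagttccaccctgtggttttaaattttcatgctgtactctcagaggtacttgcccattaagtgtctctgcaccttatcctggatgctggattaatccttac
Clec4a3 (chr6:122952265-122952564, plus strand): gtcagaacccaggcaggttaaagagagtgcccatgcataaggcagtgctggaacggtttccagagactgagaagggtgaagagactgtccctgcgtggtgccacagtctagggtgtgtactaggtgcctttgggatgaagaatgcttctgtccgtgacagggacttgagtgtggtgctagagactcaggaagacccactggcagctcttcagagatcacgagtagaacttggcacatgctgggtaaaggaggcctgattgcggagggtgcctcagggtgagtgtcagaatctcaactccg
Clec4a2 (chr6:123122440-123122739, plus strand): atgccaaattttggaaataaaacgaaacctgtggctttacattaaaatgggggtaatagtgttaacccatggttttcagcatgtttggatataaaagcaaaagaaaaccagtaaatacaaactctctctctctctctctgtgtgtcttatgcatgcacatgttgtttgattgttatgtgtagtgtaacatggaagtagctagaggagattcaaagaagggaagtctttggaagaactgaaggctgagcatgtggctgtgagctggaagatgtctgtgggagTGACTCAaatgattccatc
Clec4d (chr6:123261857-123262156, plus strand): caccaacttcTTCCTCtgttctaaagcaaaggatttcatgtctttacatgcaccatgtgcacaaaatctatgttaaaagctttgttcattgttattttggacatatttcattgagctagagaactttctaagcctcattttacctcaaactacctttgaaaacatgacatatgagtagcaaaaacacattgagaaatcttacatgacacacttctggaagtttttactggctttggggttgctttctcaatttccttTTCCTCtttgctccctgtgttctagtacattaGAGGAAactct
Mrc1 (chr2:14229164-14229463, plus strand): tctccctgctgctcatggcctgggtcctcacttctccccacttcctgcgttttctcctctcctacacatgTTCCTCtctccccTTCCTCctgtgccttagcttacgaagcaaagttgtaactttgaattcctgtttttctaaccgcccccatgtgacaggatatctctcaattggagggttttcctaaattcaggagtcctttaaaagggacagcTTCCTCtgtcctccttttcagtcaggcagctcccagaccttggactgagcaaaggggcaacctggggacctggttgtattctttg
GAGGAA or its reverse complement was found in 5 of the 7 windows, and in 28.3% of 32851 windows over all genes. It occurred 3 times in Mrc1 and in Clec4d, 2 times in Clec4a1 and in Clec4e and 1 time in Clec7a, and was not found in the windows printed for Clec4a2 and Clec4a3. RefSeq lists a second start for Clec4a3, whose window holds it 1 time. The AP-1 letters were in the Clec4a2 window alone of the 7, and in 7.81% of all windows. The palindromic STAT motif was in 2 of the 7 and in 6.95% of all windows. The genes that fell in WT TAMs and those that rose thus both include windows with GAGGAA. A match describes the window and not a bound site.

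On chromosome 6 the RefSeq order of the tested genes is Clec4a1, Clec4a3, Clec4a4, Clec4b1, Clec4a2, Clec4b2, Clec4n, Clec4d and Clec4e, with Foxj2, C3ar1 and Necap1 before them and Vmn2r19, Vmn2r20 and Vmn2r22 after them. Genes that were not tested are left out of this order. Along this order the genes from Clec4a1 to Clec4a2 fell in WT TAMs. Clec4b2, the next tested gene, was not called (0.05 ± 0.13 in KO co-culture, adjusted p = 0.895, and -0.26 ± 0.13 in WT co-culture, adjusted p = 0.254), and Clec4n and Clec4d after it rose. Clec4b2 was dim, with group means from 3.67 to 4.03 against a median of 5.34 over all genes, so a fall could hardly show. Clec4b1 lies between Clec4a4 and Clec4a2 and encodes DCAR, an FcRγ-coupled receptor. It was not among the 10 receptors and is given here for its place, after its values were seen. It averaged 6.28 in KO TAMs against 7.61 in KO macrophages, and 4.87 in WT TAMs against 7.63 in WT macrophages. The gene fell by 1.33 ± 0.26 in KO TAMs (adjusted p = 0.0125, and 0.0505 without KO macrophage array 3) and by 2.76 ± 0.26 in WT TAMs (adjusted p = 9.86e-05). Its interaction of 1.43 ± 0.37 was not called (adjusted p = 0.192). That interaction passed without KO TAM array 1, without that array and WT TAM array 2, and with array weights (adjusted p down to 0.00747). None of the 6 flanking tested genes was called in the co-culture comparison of either genotype. Of these, Vmn2r19, Vmn2r20 and Vmn2r22 were dim in every group, with means from 2.47 to 3.32, so a fall could hardly show in them either.

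**Figure D2:**
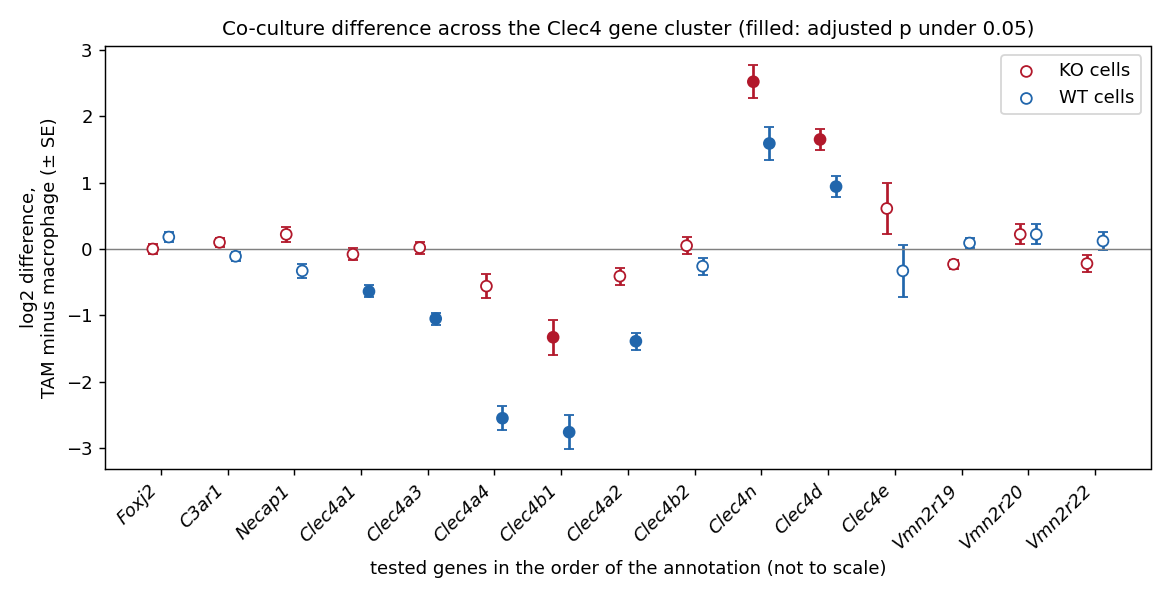
Co-culture differences (log2, points with bars of ± 1 standard error) of the tested genes in and beside the Clec4 cluster of chromosome 6, in RefSeq order and not to scale, for KO and WT cells. From Clec4a1 to Clec4a2 the WT points lie below 0, with Clec4a4 at -2.55 and Clec4b1 at -2.76, and at Clec4n and Clec4d the points of both genotypes lie above 0.

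The Syk-coupled receptors Clec4n and Clec4d rose in TAMs of both genotypes. Clec4n, or dectin-2, binds α-mannans and pairs with FcRγ. It was at 10.22, 9.19 and 8.93 in KO TAMs and 6.84, 6.76 and 7.19 in KO macrophages, and at 8.87, 9.06 and 8.78 in WT TAMs and 7.36, 7.27 and 7.31 in WT macrophages. All 6 TAM arrays lay above all 6 macrophage arrays, with KO TAM array 1 well above the others of its group. The rise was 2.52 ± 0.25 (5.72-fold, adjusted p = 0.000247) in KO cells and 1.59 ± 0.25 (3.01-fold, adjusted p = 0.00191) in WT cells. The interaction of 0.93 ± 0.36 did not pass the test (adjusted p = 0.419), and KO TAMs and WT TAMs overlapped (0.54 ± 0.25, adjusted p = 0.211). KO minus WT macrophages was -0.38 ± 0.25 (adjusted p = 0.396, and 0.0411 without WT TAM array 2 and KO TAM array 1).

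Clec4d, or MCL, binds mycobacterial cord factor and forms a complex with Mincle. It was at 11.48, 11.08 and 10.77 in KO TAMs and 9.52, 9.44 and 9.41 in KO macrophages, and at 11.11, 11.58 and 11.18 in WT TAMs and 10.32, 10.37 and 10.36 in WT macrophages. TAM arrays of the genotypes overlapped, while KO macrophages lay below WT macrophages. The rise was 1.65 ± 0.16 in KO cells (3.13-fold, adjusted p = 0.000205) and 0.94 ± 0.16 in WT cells (1.92-fold, adjusted p = 0.00288). KO macrophages were 1.85-fold lower than WT macrophages (-0.89 ± 0.16, adjusted p = 0.00463), and the interaction of 0.71 ± 0.23 was not called (adjusted p = 0.313). Without WT TAM array 2 and KO TAM array 1 the interaction was 0.67 and passed (adjusted p = 0.0175).

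Clec4e, or Mincle, the next tested gene after Clec4d, did not follow it. It was at 11.09, 9.32 and 10.67 in KO TAMs and 9.72, 9.79 and 9.72 in KO macrophages, and at 11.30, 9.99 and 10.88 in WT TAMs and 11.07, 11.08 and 11.02 in WT macrophages. Macrophage arrays of a genotype lay within 0.07 of each other, while TAM arrays spread over 1.77 in KO and 1.31 in WT and overlapped with their macrophages. Neither co-culture difference was called (0.61 ± 0.39 in KO, adjusted p = 0.433, and -0.33 ± 0.39 in WT, adjusted p = 0.692). Without KO TAM array 2 the KO difference was 1.13 and passed (adjusted p = 0.0445). KO TAMs minus WT TAMs was -0.37 ± 0.39 (adjusted p = 0.629), and -1.10 without WT TAM array 2 and KO TAM array 1 (adjusted p = 0.0419). KO macrophages were 2.48-fold below WT macrophages (-1.31 ± 0.39, adjusted p = 0.0495), and the macrophage groups did not overlap. The standard error rests on a spread shared by all 4 groups. The SD was 0.93 in KO TAMs and 0.67 in WT TAMs, against 0.04 in KO and 0.03 in WT macrophages. The call was lost under 10 of 22 alternatives, among them each single macrophage array left out (adjusted p from 0.113 to 0.128). It was kept in a fit on the macrophage groups alone, and the lowest adjusted p over the alternatives was 2.85e-05.

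Clec7a, or dectin-1, the β-glucan receptor that activates Syk through its own cytoplasmic motif, had the largest difference of the 10 between macrophages of the genotypes. It was at 9.55, 8.48 and 8.94 in KO TAMs and 6.65, 6.70 and 6.77 in KO macrophages, and at 8.75, 8.51 and 9.03 in WT TAMs and 8.08, 8.17 and 8.30 in WT macrophages. KO macrophages stood alone below the other groups, and TAMs of the genotypes overlapped. KO macrophages were 2.79-fold below WT macrophages (-1.48 ± 0.22, adjusted p = 0.00139). Clec7a rose by 2.29 ± 0.22 in KO TAMs (4.88-fold, adjusted p = 0.00014). In WT TAMs the difference was 0.58 ± 0.22 (adjusted p = 0.117), without overlap of the arrays, and it passed without KO TAM array 1 (adjusted p = 0.0191) and without WT TAM array 2 as well (0.70, adjusted p = 0.00612). The interaction of 1.71 ± 0.30 missed the threshold (adjusted p = 0.0554), and passed it without KO TAM array 1 (1.43, adjusted p = 0.00765) or without WT TAM array 2 (1.58, adjusted p = 0.044), and without both (1.30, adjusted p = 0.00471). Between TAMs the difference was 0.23 ± 0.22, with an interval from -0.24 to 0.70, and it was -0.05 without KO TAM array 1.

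**Figure D3:**
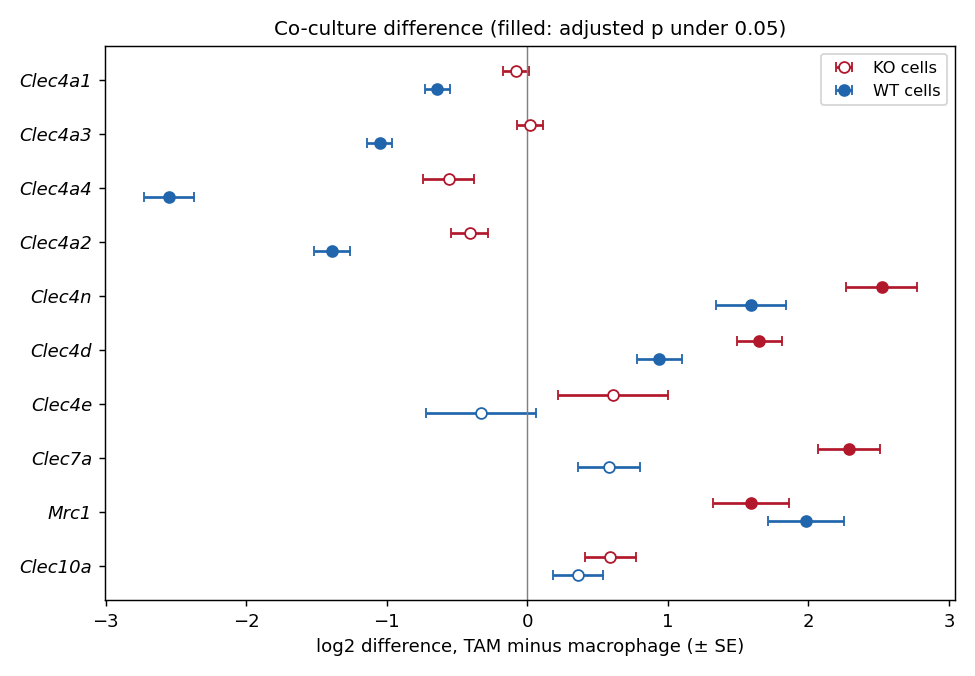
Co-culture difference of each receptor (log2, TAM minus macrophage, points with bars of ± 1 standard error; filled points were called) in KO and WT cells. Clec7a, Clec4d and Clec4n lie at 2.29, 1.65 and 2.52 in KO cells against 0.58, 0.94 and 1.59 in WT cells, and the 4 Clec4a genes lie nearer 0 in KO cells than in WT cells.

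The uptake receptor Mrc1, the mannose receptor CD206, rose in TAMs of both genotypes. It was at 12.68, 11.94 and 11.37 in KO TAMs and 10.40, 10.40 and 10.43 in KO macrophages, and at 12.85, 12.12 and 12.65 in WT TAMs and 10.39, 10.63 and 10.67 in WT macrophages. All TAM arrays lay above all macrophage arrays, and the genotypes overlapped within each culture. The rise was 1.59 ± 0.27 in KO cells (3-fold, adjusted p = 0.005) and 1.98 ± 0.27 in WT cells (3.93-fold, adjusted p = 0.000701). KO TAMs minus WT TAMs was -0.54 ± 0.27 (adjusted p = 0.231, interval from -1.13 to 0.04), and -0.89 without KO TAM array 1 (adjusted p = 0.013). The interaction was -0.39 ± 0.38 (adjusted p = 0.8). Without WT TAM array 2 and KO TAM array 1, KO TAMs minus WT TAMs was -1.09 (adjusted p = 0.00129) and the interaction -0.94 (adjusted p = 0.033).

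Clec10a, or MGL1, which binds galactose and N-acetylgalactosamine, was called in none of the comparisons. It was at 4.99, 5.66 and 5.05 in KO TAMs and 4.72, 4.66 and 4.54 in KO macrophages, and at 4.38, 4.96 and 4.55 in WT TAMs and 4.43, 4.26 and 4.13 in WT macrophages. KO TAMs lay above every other array, and WT TAMs overlapped with both macrophage groups. KO TAMs minus WT TAMs was 0.60 ± 0.18 (adjusted p = 0.0518), and KO TAMs minus KO macrophages was 0.59 ± 0.18 (adjusted p = 0.0797). The difference between TAMs was 0.73 without KO TAM array 1 (adjusted p = 0.0264), 0.77 without WT TAM array 2 (adjusted p = 0.0183) and 0.89 without both (adjusted p = 0.00605). The KO co-culture difference had an adjusted p of 0.045 without WT TAM array 2 and 0.0237 without both. The probe set was dim, with a mean of 4.69 over the arrays against a median of 5.34 over all genes.

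**Figure D4:**
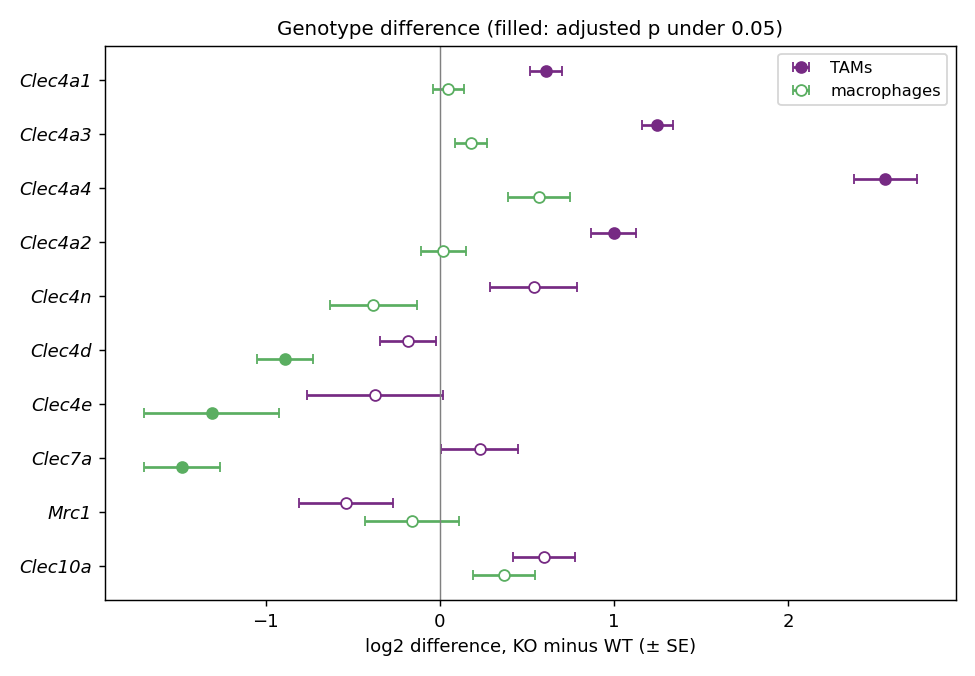
Genotype difference of each receptor (log2, KO minus WT, points with bars of ± 1 standard error; filled points were called) in TAMs and in macrophages. The 4 Clec4a genes lie between 0.61 and 2.56 in TAMs, and Clec7a, Clec4d and Clec4e lie between -1.48 and -0.89 in macrophages.

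Arrays of the KO TAM group differed among themselves in a way that ran through the family. KO TAM array 1 was the lowest of its group for Clec4a1, Clec4a2, Clec4a3, Clec4a4 and Clec10a, and the highest for Mrc1, Clec7a, Clec4d, Clec4e and Clec4n. It was also the lowest of its group for Cd36, at 8.45, against 9.66 on array 2 and 8.64 on array 3. In WT TAMs array 2 was the lowest for Mrc1, Clec7a, Clec4a3, Clec4a4 and Clec4e. Over the 10 receptors the median SD was 0.364 in KO TAMs and 0.0482 in KO macrophages, and 0.255 in WT TAMs and 0.0426 in WT macrophages.

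Across the 12 arrays the Clec4a genes had Pearson r from 0.89 (Clec4a2 and Clec4a3) to 0.98 (Clec4a3 and Clec4a4) with each other. Clec4d had 0.92 with Clec7a, 0.90 with Clec4n and 0.88 with Mrc1, but 0.38 with Clec4e. These values describe 12 arrays that fall into 4 groups and share their processing. Of 1444 genes with an SD of at least 0.5 over the arrays, the most similar to Clec4a2 were Tmem176b (0.989), Ticam2 (0.987) and Cd52 (0.987). Stxbp3 and Birc3 were among the 3 most similar to both Clec4a3 (0.938 and 0.926) and Clec4a4 (0.961 and 0.964), followed for Clec4a4 by Tlr1 (0.940) and for Clec4a3 by Prrg1 (0.908). Outside the receptors, Clec4a1 was most like Aif1 (0.952), Stxbp3 (0.951) and Tmem51 (0.948), beside 0.97 with Clec4a4 and 0.96 with Clec4a3. Clec7a was most like Fcgr1, the high-affinity IgG receptor (0.976), and then Sgk1 (0.963) and Ifi30 (0.959). Clec4d was nearest to Gpnmb (0.976), Lgals3 (0.973) and Sgk1 (0.971), Clec4n to Pld3 (0.975), Sash1 (0.973) and Xdh (0.969), and Mrc1 to Dhrs3 (0.988), Nrp1 (0.985) and Dennd4c (0.981). The best values were lower for Clec10a (Tmem86a, 0.897) and Clec4e (Zc3h12d, 0.860).

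The proteins through which these receptors signal were described as a list of 26 genes, of which 22 were tested. In KO TAMs none of the 22 rose and 5 fell, beside 6.53% of all genes called in either direction, with a median difference of -0.10, among them Map3k14 (-0.56 ± 0.11, adjusted p = 0.0123) and the phospholipase Plcg2 (-0.59 ± 0.12, adjusted p = 0.0132). Both calls were lost without KO macrophage array 3, with adjusted p up to 0.0552. In WT TAMs 1 rose and 10 fell, beside 11.5% of all genes, with a median of -0.38. These falls were led by the calcium-regulated transcription factors Nfatc2 (-0.95 ± 0.12, adjusted p = 0.000535) and Nfatc1 (-0.66 ± 0.10, adjusted p = 0.00149), the exchange factor Vav1 (-0.74 ± 0.10, adjusted p = 0.000567) and Ptpn6, the phosphatase SHP-1 that ITIMs recruit (-0.88 ± 0.14, adjusted p = 0.00172). Nfatc1 and Nfatc2 were also called lower in KO TAMs, by -0.48 ± 0.10 (adjusted p = 0.0169) and -0.50 ± 0.12 (adjusted p = 0.0326). Each of these calls was lost without any single KO macrophage array. In KO TAMs the difference of Ptpn6 was -0.39 ± 0.14 (adjusted p = 0.128). Over all genes the median difference was -0.01 in KO and 0.01 in WT co-culture.

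In KO TAMs against WT TAMs 4 of the 22 signalling genes were higher and none lower, beside 5.03% of all genes higher and 7.19% lower. They were Nfatc2 (0.64 ± 0.12, adjusted p = 0.00537), the NF-κB subunit Rel (0.71 ± 0.14, adjusted p = 0.00621), Syk (0.50 ± 0.11, adjusted p = 0.00985) and Vav1 (0.32 ± 0.10, adjusted p = 0.049, lost in 15 of 22 alternative settings). The other 3 calls were lost in a fit on the TAM groups alone. Syk averaged 10.39 in KO TAMs against 10.40 in KO macrophages, and 9.90 in WT TAMs against 10.33 in WT macrophages. Its co-culture difference was -0.01 ± 0.11 in KO (adjusted p = 0.977) and -0.43 ± 0.11 in WT (adjusted p = 0.0212, and up to 0.0804 without single arrays). The interaction of Syk was 0.42 ± 0.15 and was not called (adjusted p = 0.363). In KO against WT macrophages none was higher and 2 were lower (11.3% of all genes were called), Prkcd (-0.39 ± 0.09, adjusted p = 0.0128), the kinase between Syk and Card9, and the Src-family kinase Fgr (-0.92 ± 0.25, adjusted p = 0.0353). The call of Prkcd was lost without WT macrophage array 2 and that of Fgr without any single macrophage array. The adaptor Fcer1g, named for its role after its values were seen, encodes FcRγ. Its co-culture difference was -0.03 ± 0.08 in KO (adjusted p = 0.899) and -0.01 ± 0.08 in WT cells (adjusted p = 0.97), with no steady sign over the alternatives.

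Among 52 tested genes of 58 listed other C-type lectins, 2 rose and 2 fell in KO TAMs, and 4 rose and 2 fell in WT TAMs, beside 6.53% and 11.5% of all genes called. In KO TAMs against WT TAMs 3 were higher and 5 lower, and in KO against WT macrophages 1 was higher and 4 were lower, beside 12.2% and 11.3% of all genes. These shares of the list were near those of all genes. Clec5a, a DAP12-coupled receptor, was lower in KO than in WT cells, by -2.13 ± 0.38 in TAMs (adjusted p = 0.00356, and 0.0585 in a fit on the TAM groups alone) and -2.14 ± 0.38 in macrophages (adjusted p = 0.00398). The collectin Colec12 was lower by -1.30 ± 0.19 in TAMs (adjusted p = 0.0011) and -1.67 ± 0.19 in macrophages (adjusted p = 0.000394). Clec2d was higher in KO, by 0.68 ± 0.09 in TAMs (adjusted p = 0.000859) and 0.79 ± 0.09 in macrophages (adjusted p = 0.000511). The median difference of the list lay between -0.04 and 0.02 in these comparisons, and none of the 52 was called in the interaction. Beside the lower Colec12, the summed intensity of 14 fibroblast, stromal and endothelial markers was 1127 to 2455 in KO TAMs against 3994 to 8696 in WT TAMs, and 1137 to 1167 in KO macrophages against 2400 to 2696 in WT macrophages. The 8696 was WT TAM array 2, the others of its group being at 3994 and 4770. Between TAMs 7 of the 14 were lower in KO and 1 was higher, Pecam1 (1.71 ± 0.31, adjusted p = 0.00434, and 0.0687 in a fit on the TAM groups alone). Over all genes 7.19% were lower and 5.03% higher in KO TAMs than in WT TAMs. Between macrophages 4 of the 14 were lower in KO and none higher, beside 6.13% of all genes lower and 5.19% higher. The part of such cells was not tested.

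Of 29 genes of alternative activation, the programme for which Mrc1 is a mark, 4 rose and 1 fell in KO TAMs, and 4 rose and 2 fell in WT TAMs, beside 6.53% and 11.5% of all genes called. The transglutaminase Tgm2 rose by 0.58 ± 0.13 in KO TAMs (adjusted p = 0.0207, up to 0.0889 without single arrays) and by 1.75 ± 0.13 in WT TAMs (adjusted p = 1.85e-05). The scavenger receptor Msr1 rose by 2.06 ± 0.18 in KO TAMs (adjusted p = 7.2e-05) and 0.99 ± 0.18 in WT TAMs (adjusted p = 0.00351). Its mean was 10.99 in KO TAMs against 8.93 in KO macrophages, and 11.78 in WT TAMs against 10.79 in WT macrophages. Msr1 was thus lower in KO than in WT cells, by -0.79 ± 0.18 in TAMs (adjusted p = 0.013, up to 0.109 over the alternatives) and -1.86 ± 0.18 in macrophages (adjusted p = 0.000132). The folate receptor Folr2 rose by 1.72 ± 0.11 in KO TAMs (adjusted p = 1.38e-05) and 0.59 ± 0.11 in WT TAMs (adjusted p = 0.00576). Its mean was 11.44 in KO TAMs against 9.72 in KO macrophages, and 11.87 in WT TAMs against 11.28 in WT macrophages. Between macrophages Folr2 was lower in KO (-1.56 ± 0.11, adjusted p = 2.6e-05). The interaction was 1.13 ± 0.16 for Folr2 (adjusted p = 0.0171, up to 0.0842 without single macrophage arrays) and -1.17 ± 0.18 for Tgm2 (adjusted p = 0.0281, up to 0.0976 over the alternatives). The median of the list was -0.00 in KO and 0.15 in WT co-culture. In KO TAMs against WT TAMs 1 of the 29 was higher and 4 were lower, beside 12.2% of all genes called. In KO against WT macrophages 1 was higher and 3 were lower, beside 11.3%.

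Of 22 cytokine and related genes reported as outputs of these receptors, none was called in KO TAMs, and 2 rose and 3 fell in WT TAMs, beside 6.53% and 11.5% of all genes called. Il1b fell by 1.86 ± 0.34 in WT TAMs (adjusted p = 0.0039), while the neutrophil chemokine Cxcl1 rose by 1.34 ± 0.25 (adjusted p = 0.00504). In KO TAMs against WT TAMs 1 was higher and 1 lower, beside 12.2% of all genes called. Il10 was 2.85-fold higher in KO TAMs (1.51 ± 0.33, adjusted p = 0.0119), a call lost without KO TAM array 2 and in a fit on the TAM groups alone (adjusted p up to 0.112). The median of the list in WT co-culture was -0.09.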

How the data were processed

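Total RNA of 12 mouse macrophage samples was labelled for whole-transcript arrays, per the labels' protocols. The authors deposited 1 table of intensity values on a linear scale, made with RMA per the submitters' processing notes, which also name limma and give no version. No source used here names a genome build. RMA evens out overall brightness and so hides any change common to most genes, and array medians lay between 31.3 and 33.3. Groups came from the sample titles.

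The log2 of the intensities was taken with no pseudocount and no filter. Of 41345 probe sets, 23521 had 1 gene symbol in the array's annotation, 1814 had several and 16010 had none. The probe set of highest mean was kept per gene, which left 22180 genes. limma 3.58.1 in R 4.3.3 was fitted with 4 group means on all arrays (8 residual degrees of freedom), which share 1 estimate of the spread per gene, although TAM arrays varied more. The pipeline was tested on simulated data. An exact permutation test of 3 against 3 arrays cannot go below 0.1 and was not used. Promoters were searched with Python 3.11.15, on both strands.

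The 10 receptors and the lists beside them were chosen with earlier results of these data known. Named genes were the 10 receptors, Cd36 and sex-linked genes as checks, up to 4 genes of a list with the smallest adjusted p in a comparison, and the 3 genes outside the receptors most correlated with each receptor. Clec4b1, Clec4b2, Fcer1g, and further values of Syk, Ptpn6, Cd300e and Nr4a1 were added after their values were seen. Alternatives were a pseudocount of 16, dim probe sets left out, repeated quantile normalization, median centring, array weights, a trended robust eBayes, a fit on only the groups compared, the replicate number as a block, and each array or both arrays that stood apart left out.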

Additional observations from a re-analysis of the deposited data

Results flagged for a closer look

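The co-culture difference of Clec4a3 differed between genotypes, with 1.07 ± 0.13 on the log2 scale as the KO minus the WT difference (limma, adjusted p = 0.00777). That of Clec4a4 differed by 1.99 ± 0.25 (limma, adjusted p = 0.00859). Both genes lie in the Clec4 cluster of chromosome 6, and in both every WT TAM array lay below every KO TAM array. No other of the 10 receptors was called in this test, for which 0.194% of all genes were called.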

How the results depend on the processing

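Of 50 results (10 receptors in 5 comparisons), 20 were called, and 19 of these kept their call and direction under every alternative run. The exception was Clec4e in KO against WT macrophages, lost under 10 of 22 alternatives (adjusted p up to 0.128), and 16 results that were not called passed under some. The interactions of Clec4a3 and Clec4a4 had adjusted p up to 0.0394 and 0.0419. With array weights 7 receptors were called in KO co-culture, 7 between TAMs and 6 in the interaction. Without WT TAM array 2 and KO TAM array 1 the counts were 5 between macrophages, 7 between TAMs and 7 in the interaction. A fit on only the groups compared called 5 between macrophages. The interaction count was 4 without dim probe sets and 5 with a trended robust eBayes. Leaving out single arrays gave 4 to 6 receptors in KO co-culture, 7 to 8 in WT co-culture, 2 to 4 between macrophages, 4 to 6 between TAMs and 2 to 5 in the interaction. Over all genes, 1449, 2561, 2512, 2710 and 43 were called in that order of comparisons. Array weights gave 2705, 3976, 4923, 4725 and 761, and leaving out both arrays gave 4049, 4558 and 4480 in WT co-culture, between macrophages and between TAMs and 1496 in the interaction. The fit on only the groups compared gave 505 in KO co-culture, 4716 between macrophages and 638 between TAMs. The interaction count over all genes was 105 with the pseudocount, 96 without dim probe sets and 99 with the trended robust eBayes. Single arrays left out gave 611 to 1939, 1475 to 3393, 1403 to 3455, 1749 to 3710 and 14 to 444. The cause of these shifts was not tested.

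Values that changed sign were all from differences that were not called. Clec4e in KO co-culture was -0.03 with array weights, and in WT co-culture it was 0.04 without WT TAM array 2 and without both arrays (-0.62 to 0.04 over single arrays). Without KO TAM array 2 it was 1.13 in KO co-culture (adjusted p = 0.0445). Clec4e between TAMs was -0.74 to 0.15 over single arrays. Clec4a3 in KO co-culture ranged over single arrays between -0.0026 and 0.06. Clec4a2 between macrophages was -0.01 with repeated quantile normalization and with median centring. Clec7a between TAMs was -0.19 with array weights, -0.18 without both arrays, and -0.05 to 0.49 over single arrays. Syk in KO co-culture was 0.0048 with repeated quantile normalization, 0.09 without both arrays, and -0.14 to 0.09 over single arrays. Clec4b2 in KO co-culture was -0.12 to 0.15 over single arrays. Fcer1g in KO co-culture was 0.02 without both arrays and -0.08 to 0.02 over single arrays. In WT co-culture it was 0.01 with median centring, 0.03 with array weights, 0.04 without both arrays, and -0.06 to 0.04 over single arrays.

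Groups share replicate numbers, and the titles do not say whether these pair the arrays. Deviations of same-numbered arrays correlated at 0.27, 0.25 and 0.03 between KO TAMs and WT TAMs, and between -0.04 and 0.02 in the other comparisons. In no comparison were all pairs over 0.1. The main fit did not pair arrays, and with 3 arrays a group these values cannot settle whether pairs exist. With the replicate number as a block, 4, 7, 4 and 5 receptors were called in the 4 comparisons in that order and 2 in the interaction, and 26 genes in the interaction over all genes.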
